A study of Mus musculus with 6 samples.

Results

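Gdf5, a secreted ligand of the bone morphogenetic protein (BMP) family, was examined together with 9 further genes of its signalling pathway in the gastrocnemius, a calf muscle, of male C57BL/6J mice. The young group was 13 weeks and the aged group 26 months of age, each with 3 mice, no treatment named for either and 1 single-colour Agilent array per mouse. The 10 genes were Gdf5, the antagonist Nog, the receptors Bmpr1a, Bmpr1b and Bmpr2, the signal transducers Smad1 and Smad5, and the targets Id1, Id2 and Id3. They are 10 of the 21366 gene symbols on the array and were found through 14 non-control probes whose RefSeq accession mapped to them. They were chosen by their processed signal in aged against young mice, that of Gdf5 first, so the difference with age in these 10 genes is a description and is given without a test.

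BMP ligands are secreted dimers that bring type I receptors (Bmpr1a, Bmpr1b) and type II receptors (Bmpr2) together at the cell surface. The type II receptor phosphorylates the type I receptor, which phosphorylates Smad1 and Smad5. These enter the nucleus with Smad4 and switch on targets such as the Id genes, whose products hold back basic helix-loop-helix factors including the myogenic ones. Nog, which encodes noggin, binds ligands outside the cell and blocks them. In skeletal muscle the pathway is known for maintaining muscle mass, and Gdf5, best known for its part in joint formation, is known to be induced when muscle loses its nerve.

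The values below are log2 processed signals relative to the 75th percentile of the array, so that 0 is the level of that percentile. A level is compared with other levels of the same probe, with 2 exceptions. The dimmest probes of an array are given as a floor, and the marker sums add linear levels of different probes. Bright probes therefore weigh most in those sums. A single slide and scan held all 6 arrays, the young mice and aged mouse 1 in row 1 and aged mice 2 and 3 in row 2. Between 48.7% and 53.8% of probes per array were well above background, the highest share being that of aged mouse 1, and the correlation across genes between any pair of arrays was at least 0.966. Of 20900 genes tested with limma, 53 passed an adjusted p of 0.05, 41 higher and 12 lower in aged mice, and 3016 had an unadjusted p under 0.05. For each of the 10 members the probe used exceeded background clearly on every array, and no probe on any array was saturated.

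Gdf5 was far higher in every aged mouse than in every young mouse. Its brighter probe (A_66_P127070, transcript NM_008109) read -3.46, -3.16 and -3.20 in the young mice and 1.18, 1.74 and 1.62 in the aged mice, here as below in the order of mouse 1 to mouse 3. The groups were far apart, and the 3 mice of each group lay close together, with a mean of -3.27 ± 0.16 for young and of 1.51 ± 0.30 for aged mice (SD, n = 3). The difference was 4.78 with a standard error of 0.20, or 27.5-fold, and ranked 5 by size among the increases of all genes tested. Before scaling, the processed signals were 27.3, 29.0 and 22.8 in young mice and 701, 957 and 831 in aged mice, while the dimmest probes well above background on an array read between 14.3 and 21.3. The young signals thus lay near the lower end of what the arrays measured, and the size of the fold depended on how background was removed: with normexp correction the difference was 3.17, or 8.98-fold. RNA of a whole muscle was measured, so more cells that make a transcript and more of the transcript per cell cannot be told apart for this or any gene below.

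The dimmer Gdf5 probe (A_55_P2131831, the same transcript) was also higher in every aged mouse. Its values were -5.95, -4.25 and -5.64 in young mice, where it was not well above background on any array, and -1.64, -1.52 and -1.63 in aged mice, where it was well above background on all 3. A young level is therefore only a bound, and the increase was at least 5.27-fold. Within row 1 of the slide, aged mouse 1 exceeded the mean of the young mice by 4.44 for the brighter probe. Both aged mice of row 2 were higher still, with a mean 4.95 above the young mice.

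**Figure D1:**
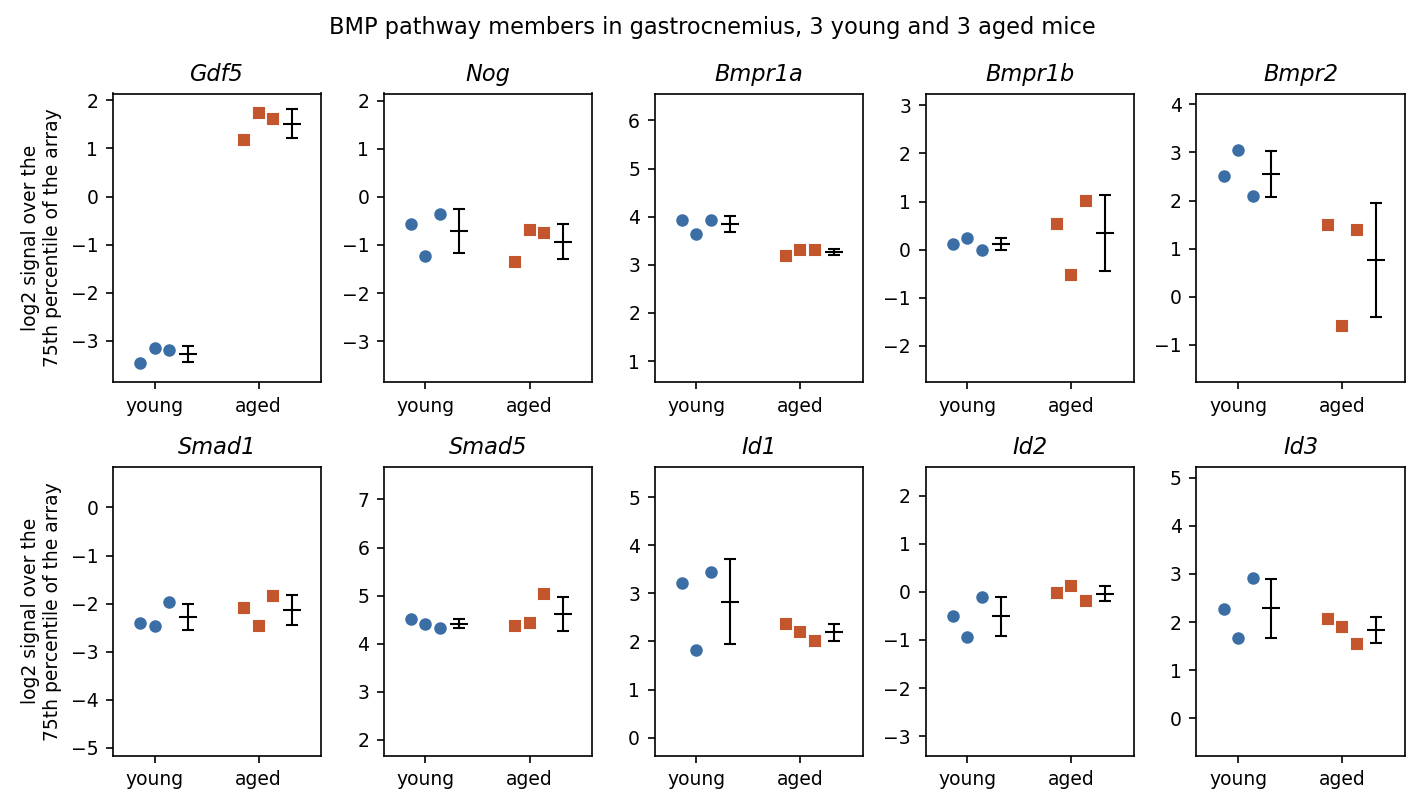
Log2 signal over the 75th percentile of the array (vertical axis) of the 10 members in young (circles) and aged (squares) mice, with the mean and SD of the 3 mice beside the points; the panels span the same number of log2 units. Gdf5 stands apart, from between -3.46 and -3.16 in young to between 1.18 and 1.74 in aged mice, and the aged mice lie below the young mice for Bmpr1a and Bmpr2.

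Of the receptors, Bmpr1a, a type I receptor for several BMPs (NM_009758), read 3.93, 3.65 and 3.93 in young mice and 3.19, 3.32 and 3.30 in aged mice. Every aged value was below every young value, with means of 3.84 ± 0.17 and 3.27 ± 0.07 (SD, n = 3), a difference of -0.57 (SE 0.16), or 1.49-fold lower in aged mice. Bmpr1b, the type I receptor that Gdf5 is known to bind best (NM_007560), read 0.11, 0.25 and -0.01 in young mice and 0.54, -0.53 and 1.02 in aged mice. The aged mice lay on both sides of the young mice, and the difference of 0.23 was smaller than its standard error of 0.38. The dimmer Bmpr1b probe showed the same order among the aged mice, with -1.19, -3.33 and -0.49 against -1.76, -2.69 and -2.69 in young mice.

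Bmpr2, the type II receptor (NM_007561), had the largest decrease among the members and also the widest spread. It read 2.50, 3.05 and 2.09 in young mice and 1.50, -0.60 and 1.38 in aged mice. The groups did not overlap, but aged mouse 2 lay further below the other aged mice than these lay below the young mice. The means were 2.55 ± 0.48 and 0.76 ± 1.18 (SD, n = 3), a difference of -1.79 (SE 0.58), or 3.45-fold lower in aged mice. Aged mouse 1, on the same slide row as the young mice, was 1.05 below their mean on the log2 scale.

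The sequences upstream of the 2 receptor genes that were lower in every aged mouse are shown because both hold GGCGCC, a GC-rich sequence to which Smad1 and Smad5 are known to bind, and that of Id2 is shown beside them as the one Id gene whose sequence held it. They are the 250 bases before the start of the gene in RefSeq (GRCm38.p6), read 5′ to 3′ on the strand of the gene, in lower case with GGCGCC in capitals. The positions are chr14:34502547-34502796 on the minus strand for Bmpr1a, chr1:59764029-59764278 on the plus strand for Bmpr2 and chr12:25096093-25096342 on the minus strand for Id2.
Bmpr1a: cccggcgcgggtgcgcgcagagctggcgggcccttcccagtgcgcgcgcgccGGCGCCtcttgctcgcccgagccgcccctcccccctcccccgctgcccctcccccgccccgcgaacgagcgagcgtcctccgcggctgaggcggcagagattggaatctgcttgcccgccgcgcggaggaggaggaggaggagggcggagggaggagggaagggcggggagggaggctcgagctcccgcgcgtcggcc
Bmpr2: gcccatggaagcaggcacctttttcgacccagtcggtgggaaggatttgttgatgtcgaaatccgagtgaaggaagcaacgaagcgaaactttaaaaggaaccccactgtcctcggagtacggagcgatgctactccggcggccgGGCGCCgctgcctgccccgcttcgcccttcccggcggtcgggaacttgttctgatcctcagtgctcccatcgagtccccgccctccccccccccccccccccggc
Id2: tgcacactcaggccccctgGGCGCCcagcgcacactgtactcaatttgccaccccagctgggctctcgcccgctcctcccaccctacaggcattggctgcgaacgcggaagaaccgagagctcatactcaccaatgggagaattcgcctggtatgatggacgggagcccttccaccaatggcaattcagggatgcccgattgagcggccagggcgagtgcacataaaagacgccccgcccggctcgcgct

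Promoters of 7 of the 10 members were held in the table used, in 11 windows, since Bmpr1b and Smad5 have several starts, some of whose windows overlap. GGCGCC, which reads the same on both strands, lay in 4 of the 11 windows (36.4%), those of Bmpr1a, Bmpr2, Id2 and 1 of 3 for Smad5. It lay in 9.586% of all 32851 windows of the same length. Windows with the sequence were GC-rich, with a median GC content of 66.8% against 52.4% over all windows, and the members' windows had a median of 62.8%. The windows of Bmpr1b, Smad1 and Id3 held no GGCGCC. A match of letters is a description and says nothing of binding in these muscles. Gdf5, Id1 and Nog were matched to no sequence.

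Smad1 and Smad5, which carry the signal from the type I receptor to the nucleus, differed between the groups by less than their spread. Smad1 (NM_008539) read -2.40, -2.47 and -1.97 in young mice and -2.09, -2.46 and -1.84 in aged mice, a difference of 0.15 (SE 0.23). Smad5 (NM_001164041) read 4.52, 4.42 and 4.32 in young mice and 4.38, 4.44 and 5.03 in aged mice, a difference of 0.20 (SE 0.22). Both genes overlapped between the groups, and aged mouse 3 was the highest of the 6 mice for each. The dimmer Smad5 probe placed the same mouse apart, at -1.62 against values between -3.29 and -2.99 in the other 5 mice. The dimmer Smad1 probe was also highest in aged mouse 3, at -1.21.

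The Id genes, the most commonly used readouts of BMP signalling, did not move together. Id1 (NM_010495) read 3.22, 1.81 and 3.44 in young mice and 2.37, 2.19 and 2.01 in aged mice. Id3 (NM_008321) read 2.28, 1.67 and 2.91 in young mice and 2.06, 1.91 and 1.54 in aged mice. For both genes young mouse 2 lay among or below the aged mice and young mouse 3 was the highest of all. The differences were -0.63 (SE 0.42) for Id1 and -0.45 (SE 0.33) for Id3, and without young mouse 2 they were -1.14 and -0.76. Id2 (NM_010496) went the other way, with -0.50, -0.93 and -0.11 in young mice and -0.03, 0.12 and -0.19 in aged mice, a difference of 0.47 (SE 0.24). Its groups overlapped through young mouse 3 and aged mouse 3.

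Nog, the extracellular antagonist (NM_008711), read -0.57, -1.23 and -0.35 in young mice and -1.35, -0.69 and -0.74 in aged mice. The lowest values of the groups were close to each other, and the difference of -0.21 was smaller than its standard error of 0.29.

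Of the 10 members, 5 had a higher and 5 a lower mean in aged mice, with a median difference of -0.03 against -0.06 over all genes tested. Gdf5 alone was among the called genes, or 10% of the members beside 0.254% of all genes (0.196% higher and 0.0574% lower in aged mice), a count that the choice of the members fixed in part and from which nothing is read. The groups did not overlap for 3 members, Gdf5 upwards and Bmpr1a and Bmpr2 downwards, beside 21.8% of all genes (7.92% upwards and 13.9% downwards). 

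**Figure D2:**
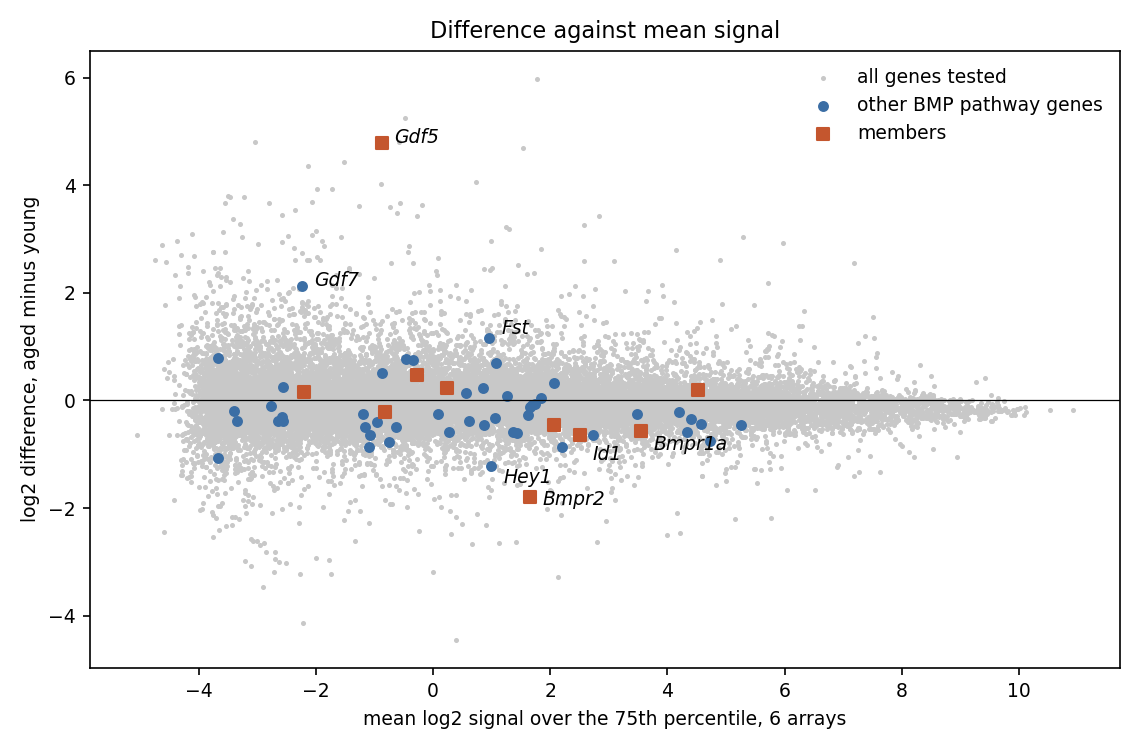
Difference between aged and young mice on the log2 scale (vertical axis) against the mean log2 signal over the 75th percentile of 6 arrays (horizontal axis) for all 20900 genes tested (grey), the 10 members (squares) and 48 other genes of the BMP pathway (circles). Gdf5 lies at 4.78, Gdf7 at 2.12 and Bmpr2 at -1.79, and the remaining members lie between -0.63 and 0.47.

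The rest of the pathway was taken from a list of 65 genes, of which 48 could be tested. Of these, 1 rose, 0 fell and 12 had an unadjusted p under 0.05 by limma. The share called was 2.08%, beside 0.254% of all 20900 genes, of which 3016 had an unadjusted p under 0.05. The means of 13 were higher and those of 35 lower in aged mice, with a median difference of -0.32 against -0.06 over all genes. In 3 genes (6.25%, beside 7.92% of all genes) every aged mouse was above every young mouse, and in 12 (25%, beside 13.9%) every aged mouse was below. The 17 genes that were not tested, among them the ligands Bmp3, Bmp10 and Gdf6, the antagonists Grem1 and Sost and the bone factors Runx2 and Sp7, had no probe well above background on 3 arrays.

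The gene that rose was Gdf7, the ligand of the family closest to Gdf5 beside Gdf6. It read -3.09, -3.21 and -3.61 in young mice, where it was well above background on 2 of 3 arrays, and -1.15, -1.18 and -1.21 in aged mice, where it was so on all 3. The means were -3.30 ± 0.27 and -1.18 ± 0.03 (SD, n = 3), a difference of 2.12 (SE 0.18), or 4.35-fold (limma, adjusted p = 0.0212 by the Benjamini-Hochberg method over 20900 genes). Its second probe was well above background on no array. With normexp correction the difference was 0.89, or 1.85-fold (adjusted p = 0.0435). The call was lost when any 1 mouse other than aged mouse 1 was left out, with adjusted p between 0.0538 and 0.111, and also with the slide row as a block (difference 2.15, adjusted p = 0.0713), with the replicate number as a block (adjusted p = 0.0863) and without a filter on dim probes (adjusted p = 0.0795). Of the other ligands tested, 1 had a higher and 8 a lower mean in aged mice, and Bmp2, lower in every aged mouse, differed by -0.49 (SE 0.24, limma adjusted p = 0.412).

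None of the 8 further receptors and co-receptors passed the test, and the means of all 8 were lower in aged mice, with differences between -0.75 and -0.06. Rgma, a co-receptor lower in every aged mouse, differed by -0.58 (limma adjusted p = 0.300). Among the 15 antagonists and modulators tested, 7 had a higher and 8 a lower mean, and none passed. Fst, which encodes follistatin, a binder of activins, myostatin and some BMPs, read 0.33, 0.26 and 0.54 in young mice and 1.32, 1.42 and 1.84 in aged mice, a difference of 1.15 (SE 0.20, 2.23-fold, limma adjusted p = 0.0974). The related Fstl3 was also higher in each aged mouse, by 0.76 (adjusted p = 0.249). Chrdl1, a chordin-like antagonist, was lower in each aged mouse by its brightest probe, at -1.06 (adjusted p = 0.163), but its other probes, not well above background on any young array, gave -0.11 and 0.08. Bmp1, a protease that cleaves chordin and procollagens, differed by -0.64 (adjusted p = 0.260), its relative Tll1 by -0.37 (adjusted p = 0.368) and the antagonist Nbl1 by -0.59 (adjusted p = 0.316), each lower in every aged mouse.

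The inhibitory Smads, which BMP signalling itself is known to induce, were lower in every aged mouse without passing the test. Smad6 read -0.87, -0.43 and -0.69 in young mice and -1.28, -1.54 and -1.75 in aged mice, a difference of -0.86 (SE 0.20, limma adjusted p = 0.160). Smad7 read -0.16, -0.33 and -0.62 in young mice and -0.95, -1.04 and -1.44 in aged mice, a difference of -0.77 (SE 0.21, adjusted p = 0.202). Skil and Ski, nuclear repressors of Smads, differed by -0.61 and -0.49 (adjusted p = 0.254 and 0.367). Of the 9 genes of this group, 2 had a higher and 7 a lower mean, with a median of -0.44. Hey1, a target shared with Notch signalling, read 1.70, 1.44 and 1.62 in young mice and 1.01, -0.09 and 0.20 in aged mice, a difference of -1.22 (SE 0.29, adjusted p = 0.168), and passed the test only without aged mouse 1, at -1.53 (adjusted p = 0.0347). Of the 6 further targets tested, Hey1 included, 2 had a higher and 4 a lower mean, and Msx1, lower in every aged mouse, differed by -0.25 (adjusted p = 0.508).

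**Figure D3:**
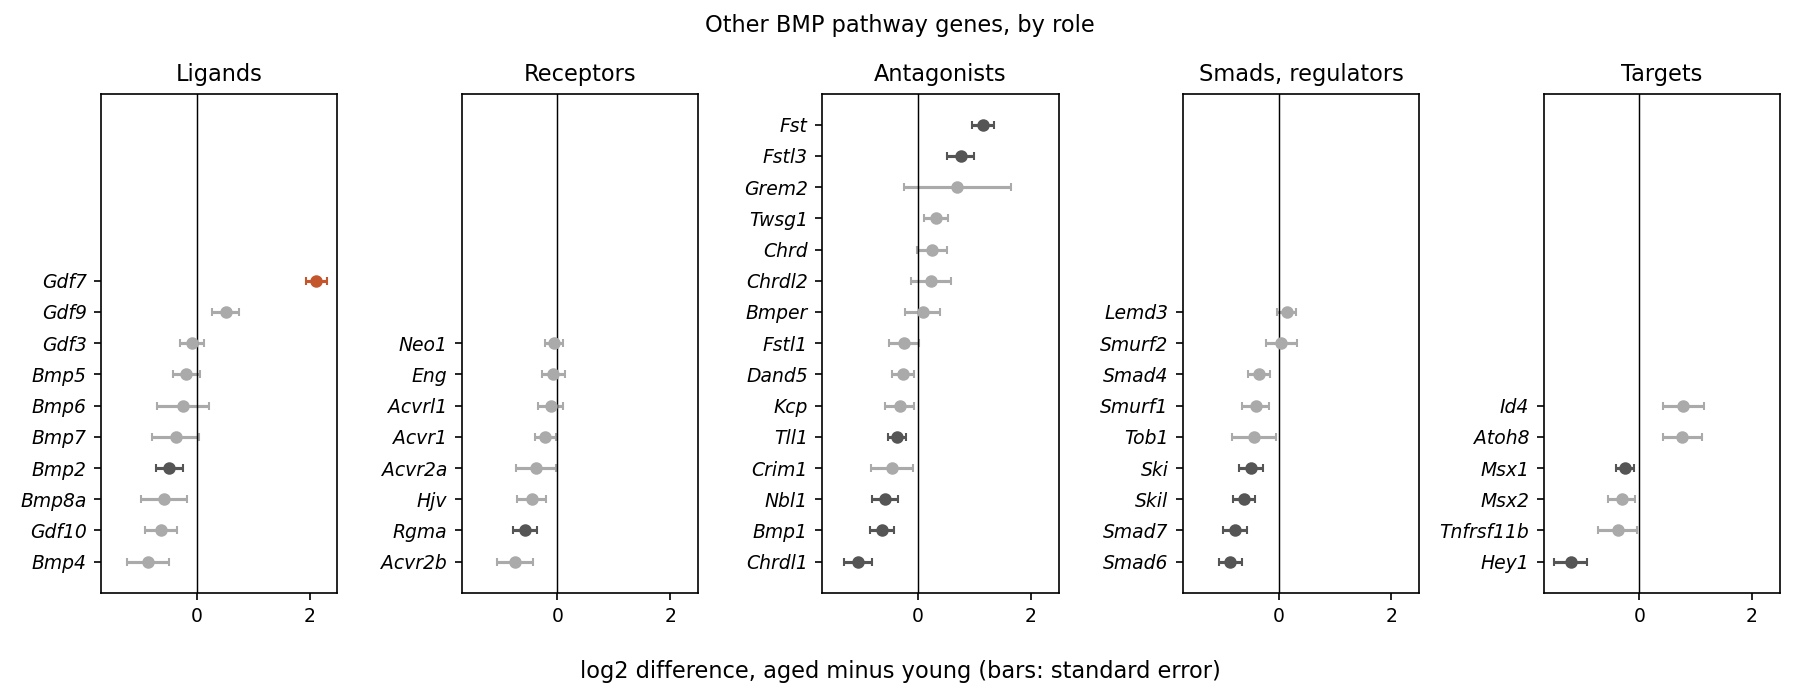
Difference between aged and young mice on the log2 scale with its standard error (horizontal axis) for the 48 other genes of the BMP pathway, by role; orange marks an adjusted p under 0.05, dark grey groups that do not overlap and light grey groups that overlap. Gdf7 alone is orange, at 2.12, and the receptors all lie below 0.

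Gdf5 is known to be induced after loss of the nerve, and a list of 11 denervation response genes was set beside it. None passed the test, 7 had an unadjusted p under 0.05, and 9 had a higher mean in aged mice, with a median difference of 0.98. In 7 of them (63.6%, beside 7.92% of all genes) every aged mouse was above every young mouse. In Cacnb1 (-0.45, limma adjusted p = 0.356) every aged mouse was below (9.09% of the list, beside 13.9% of all genes). Fbxo30 (-0.02), Fbxo32 (0.25) and Trim63 (0.61) overlapped between the groups. The list was chosen with earlier results of these data known, so its counts are a description. Loss of the nerve was not tested as a cause. Runx1, a transcription factor that rises in denervated fibres, read -1.92, -1.31 and -2.18 in young mice and 0.53, 0.51 and 1.82 in aged mice, a difference of 2.75 (SE 0.41, limma adjusted p = 0.0673). Gadd45a, a stress response gene, differed by 2.59 (SE 0.39, adjusted p = 0.0673). Myog, the myogenic factor myogenin, read -0.52, -0.22 and 0.04 in young mice and 1.12, 2.20 and 3.39 in aged mice, a difference of 2.47 (SE 0.54, adjusted p = 0.149). Chrna1 and Chrng encode subunits of the acetylcholine receptor. Chrna1 differed by 1.83 (adjusted p = 0.153). Chrng, not well above background on any young array, was at least 2.50-fold higher in aged mice. It passed the filter through the aged arrays alone, so no test is given for it. Its place in both counts of 7 rests on young values near the floor. Of the 7, aged mouse 3 was the highest for Runx1, Gadd45a, Myog and Chrna1, aged mouse 2 for Chrng and Hdac4, as for Gdf5, and aged mouse 1 for Ncam1, as for Gdf7. The probes of Ncam1, all well above background on every array, disagreed in direction. A_55_P2050602, which stood for the gene, differed by 0.98 and A_55_P2028942 by 1.26, but A_51_P380309 differed by -0.44. On A_51_P380309, aged mice 2 and 3 (-0.60 and -0.75) lay below every young mouse. Without aged mouse 1, Myog (limma adjusted p = 0.0365) and Chrna1 (adjusted p = 0.0349) passed the test. Gadd45a passed with normexp correction (adjusted p = 0.0450) and with a mean-variance trend (adjusted p = 0.0446), and Runx1 with the trend (adjusted p = 0.0477).

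**Figure D4:**
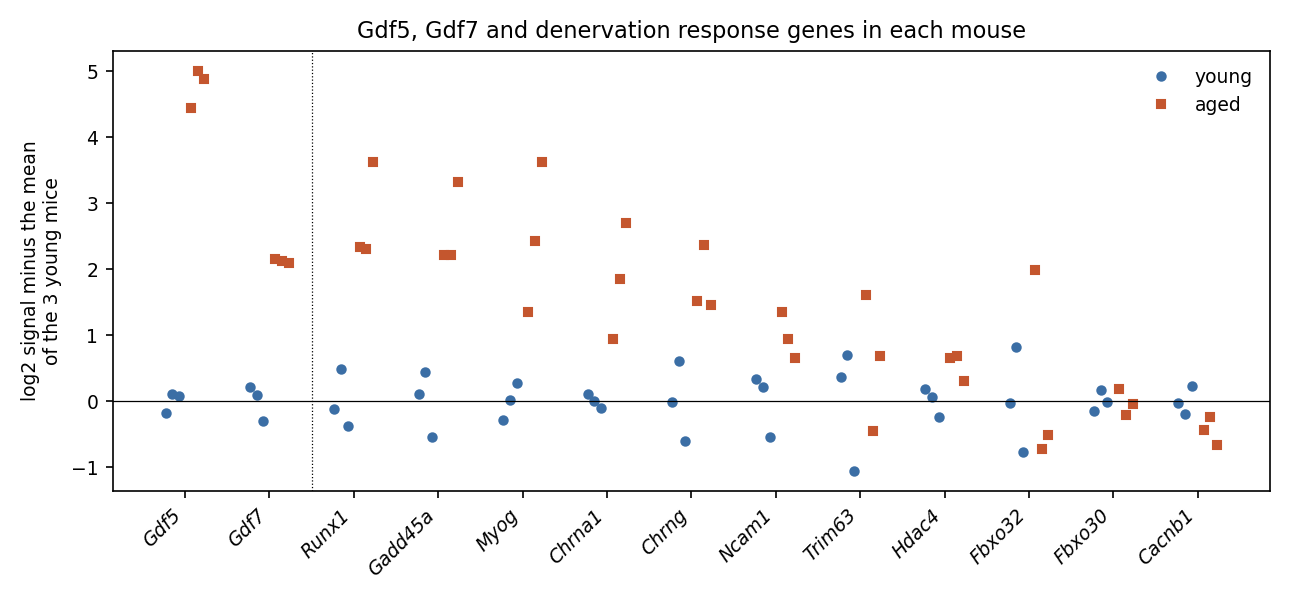
Log2 signal of each mouse minus the mean of the 3 young mice (vertical axis) for Gdf5, Gdf7 and the 11 denervation response genes, with young mice as circles and aged mice as squares in the order 1 to 3. The aged mice lie above all young mice for Gdf5, Gdf7 and 7 of the 11 genes, and they spread more widely for Myog and Chrna1 than for Gdf5.

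The labelled tissue was checked against markers. The summed level of 8 muscle fibre genes, relative to the 75th percentile, lay between 5869 and 6993 in young and between 4748 and 6342 in aged mice, and none was called. Mylpf (1.29) was higher and Tnnt3 (-0.27) and Atp2a1 (-0.15) were lower in every aged mouse (limma adjusted p between 0.459 and 0.653). These were 12.5% and 25% of the list, beside 7.92% and 13.9% of all genes. Of the cartilage and joint markers, the tissue for which Gdf5 is best known, 7 of 12 could be tested and none was called. Their means were higher in aged mice for 3 (Acan, Sox9 and Cytl1, by 0.02 to 0.17) and lower for 4. Comp, Chad and Col9a1 (42.9% of those tested, beside 13.9% of all genes) were lower in each aged mouse than in any young mouse. The sum of the 7 lay between 10.9 and 21.1 in young and between 6.35 and 9.60 in aged mice, and without Comp, the brightest, between 5.90 and 9.71 and between 3.96 and 4.97. The cartilage genes Col2a1, Matn1, Matn3, Col10a1 and Ucma were well above background on at most 2 arrays. For Col2a1 and Ucma these were 2 young and 0 aged arrays each, and for Col10a1 1 aged array. Chad, a cartilage matrix protein, differed by -2.16 (limma adjusted p = 0.105, and 0.0487 with median scaling), and Comp by -1.42 (adjusted p = 0.228). The Col9a1 probe that stood for the gene was well above background on all 3 young and no aged arrays and was at least 3.43-fold lower in aged mice. It passed the filter through the young arrays alone, so no test is given for it. Its place in the 42.9% rests on aged values near the floor. The second Col9a1 probe, well above background on 1 aged array alone, differed by -0.07.

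All 7 tendon markers separated the groups. In every aged mouse 5 were lower (71.4%, beside 13.9% of all genes) and 2 higher (28.6%, beside 7.92%). Mkx was well above background on 1 and Tnmd on 2 of the 3 aged arrays, so their aged levels lay near the floor. Kera, a proteoglycan of tendon and cornea, fell by 3.18 on the log2 scale (SE 0.33, limma adjusted p = 0.0262), a call lost with either block, without the filter and when any 1 mouse other than aged mouse 1 was left out (adjusted p between 0.0539 and 0.111). The others did not pass the test. Mkx differed by -2.21, Tnmd by -1.58, Fmod by -1.30 and Thbs4 by -0.89, while Scx, a tendon transcription factor, differed by 1.35 and Cilp by 0.94 (adjusted p between 0.124 and 0.229). The sum of the 7, between 68.3 and 74.0 in young and between 49.4 and 89.3 in aged mice, overlapped. Their part in the values of the BMP genes was not tested, here as for the markers below.

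Endothelial markers summed to less in every aged mouse. The sum of 10 lay between 100 and 132 in young and between 70.8 and 91.2 in aged mice, and without Egfl7, the brightest, between 40.7 and 47.1 and between 28.0 and 40.4. None was called, and 3 had a higher and 7 a lower mean in aged mice. Cdh5 (-0.79) and Esam (-0.52), or 20% beside 13.9% of all genes, were lower in every aged mouse (limma adjusted p = 0.215 and 0.258). The sum of 10 fibro-adipogenic markers was also lower in every aged mouse, between 303 and 432 against between 476 and 551, but this rested on Dcn, without which the sums overlapped, between 120 and 195 in aged and between 147 and 194 in young mice. None was called. Col1a1 (-1.56), Dcn (-0.85) and Pdgfra (-0.21), or 30% beside 13.9% of all genes, were lower in every aged mouse (adjusted p between 0.291 and 0.541). Leaving out the brightest gene of a list was chosen after seeing the data.

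Sums over the other lists overlapped between the groups. Among 8 Schwann cell markers, 6 (75%, beside 13.9% of all genes) were lower in every aged mouse. Prx, a protein of myelinating Schwann cells, fell by 1.29 on the log2 scale (SE 0.16, limma adjusted p = 0.0428), a call lost with either block, without the filter, with median scaling or a percentile over detected probes, and when any 1 mouse other than aged mouse 1 was left out (adjusted p between 0.050045 and 0.203). Sox10 (-0.92), Ncmap (-0.79), Pmp22 (-0.73) and S100b (-0.60) did not pass (adjusted p between 0.118 and 0.252). The sum over the list lay between 24.3 and 44.4 in young and between 22.0 and 39.7 in aged mice. Among 9 macrophage markers, none was called and 5 (55.6%, beside 7.92% of all genes) were higher in every aged mouse. They were Cd68 (1.08), C1qb (0.89), Adgre1 (0.64), Mrc1 (0.46) and C1qa (0.38), with adjusted p between 0.125 and 0.390. Of the 9, 7 had a higher mean in aged mice and 2 a lower one, Csf1r (-0.05) and Itgam (-0.26), both overlapping between the groups. Without Itgam the sum over the macrophage list lay between 21.1 and 22.8 in young and between 24.0 and 29.9 in aged mice. With it the sum lay between 41.1 and 49.1 and between 45.7 and 47.8. Among 5 satellite cell markers, none was called, and the sums were 15.3 to 15.5 in young and 15.5 to 17.5 in aged mice. Chodl (-1.27) and Calcr (-1.19), or 40% beside 13.9% of all genes, were lower in every aged mouse (adjusted p = 0.229 and 0.306). Calcr was well above background on 1 of 3 aged arrays.

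The genes whose values over the 6 mice lay closest to those of Gdf5 were sought among 12683 genes. The measure was the root mean square difference of the values, each taken from the mean of the young mice. They were S100a9 (0.41) and S100a8 (0.44), calcium-binding proteins abundant in neutrophils, then Ccl8 (0.95), a chemokine, Chil3 (0.97), a macrophage chitinase-like protein, and Krt18 (1.03), an epithelial keratin. They were chosen for this likeness, so their own differences of 4.70, 4.80, 3.64, 4.01 and 5.98 are a description. A small value does not mean the same order of mice. Of the aged mice, S100a9 and S100a8 were highest in mouse 1, where Gdf5 was lowest. The genes on either side of Gdf5 in the RefSeq order did not share its rise: Uqcc1 differed by 0.39 (SE 0.31, limma adjusted p = 0.589) and Cep250 by -0.35 (SE 0.19, adjusted p = 0.452), and both overlapped between the groups.

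The size of the Gdf5 difference was set against 16 other ways of processing. It lay between 3.17 and 4.95, and no setting changed its sign. Bmpr1a stayed between -0.72 and -0.40 and Bmpr2 between -2.16 and -1.05. Id1, Id2, Id3, Nog and Smad1 also kept their sign, with Nog at -0.00065 without aged mouse 1, whereas Bmpr1b changed sign in 1 and Smad5 in 2 of the 16 settings.

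**Figure D5:**
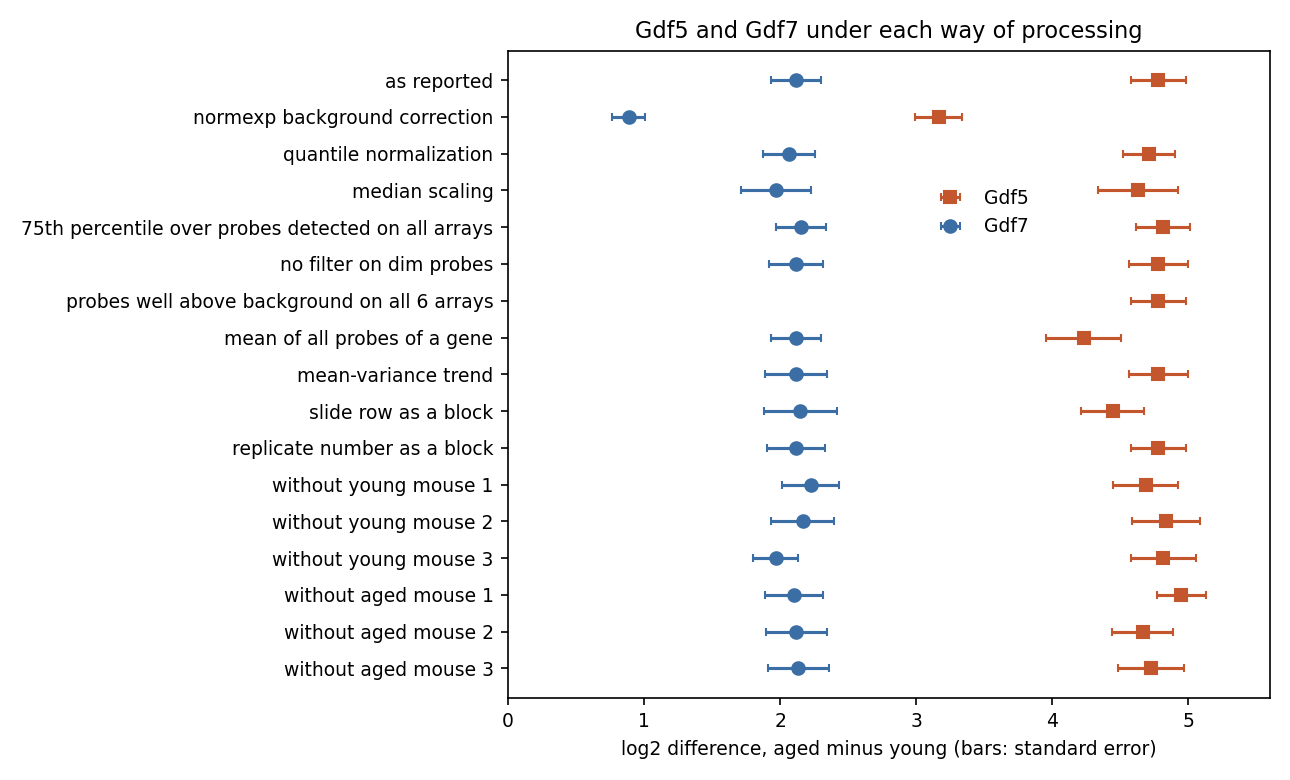
Difference between aged and young mice on the log2 scale with its standard error (horizontal axis) for Gdf5 (squares) and Gdf7 (circles) as reported and under each other way of processing (vertical axis). Gdf5 lies between 3.17 and 4.95 and Gdf7 between 0.89 and 2.23, both lowest with normexp correction, and Gdf7 has no value where a probe had to be well above background on all 6 arrays.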

How the data were processed

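Total RNA of 6 gastrocnemius muscles was labelled with Cy3 and hybridised to single-colour Agilent arrays. The deposited values are the processed signal, an intensity on a linear scale from which the authors' Feature Extraction software (version 9.5 per the labels, 11.0.1.1 per the file headers) had subtracted background. The deposited series matrix held identical values (largest log2 difference 0).

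Of 62976 spots per array, 59305 were not controls. Flagged spots (161 to 212 per array) were left out, log2 signals of replicate spots were averaged, and values were taken relative to the array's 75th percentile. Flags removed 12 of 55681 probes. Accessions were matched to RefSeq (GRCm38.p6), which named 28325 of 55669 probes. The brightest probe on average, among those well above background on at least 3 arrays, stood for a gene. The age groups were tested by limma 3.58.1 under R 4.3.3 (lmFit, eBayes, Benjamini-Hochberg adjustment over 20900 genes, 13844 with a symbol). The fit was tested on simulated data. With 3 mice against 3 an exact permutation test cannot go below p = 0.1. The number of arrays and the signal over background limit the precision. The p-values set a difference between the groups against the spread between these mice, moderated by limma over all genes tested.

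The members and lists were chosen with earlier results of these data known. The rule for the genes named from each list takes those past the threshold and then those whose groups do not overlap, largest difference first, at most 6. Thbs4, Hdac4, Cacnb1 and the overlapping cartilage and denervation response genes were named after their values were seen. Some marker genes are not reported here. The alternatives were normexp (offset 50) correction, quantile normalization, median scaling, a percentile over detected probes, other filters and probe rules, a mean-variance trend, blocks for slide row or replicate number, and omission of single mice.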

Additional observations from a re-analysis of the deposited data

How the results depend on the processing

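The count of 53 genes past the threshold became 8 without a filter on dim probes, 35 where a probe had to pass background on all 6 arrays, and between 1 and 199 when 1 mouse was left out (1 without aged mouse 3, 199 without aged mouse 1). It lay between 41 and 73 in the other settings without a replicate block, of which the slide row as a block shared only 12 genes with the 53. The 1 other BMP gene past the threshold, Gdf7, became 0 without a filter (adjusted p = 0.0795), with all 6 arrays required (not testable) and with the slide row as a block (adjusted p = 0.0713), and between 0 and 2 when 1 mouse was left out, the 2 being Gdf7 and Hey1 without aged mouse 1. The Gdf5 difference of 4.78 moved beyond the spread between mice with normexp (3.17), the mean of its probes (4.23) and the slide row as a block (4.44), and lay between 4.67 and 4.95 when 1 mouse was left out. Median scaling moved the median of all genes from -0.06 to -0.21, and Gdf5 remained 4.63 higher. Among marker genes, Atp2a1 (a muscle fibre gene, -0.15) reversed to 0.0053 under quantile normalization. The cause of these changes was not tested. The series matrix was not run as an alternative, being identical.

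The groups share replicate numbers, but nothing in the labels ties equal numbers together, so the mice were treated as unpaired. Deviations of equally numbered mice correlated at -0.06, -0.27 and 0.03 across genes. Unequally numbered mice were not set beside them, so these values cannot show whether the numbers pair the mice. With the replicate block, 5 genes passed and the BMP count was 0, with Gdf7 at an adjusted p of 0.0863.

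A probe near background, as Gdf5 was in young mice, limits how closely a fold can be known.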
